A study of Mus musculus with 12 samples.

Results

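Has1, Has2, Gfpt1, Gfpt2, Ugdh, Uap1, Cd44 and Tnfaip6 are genes for making hyaluronan, for the hexosamine route that feeds it, and for holding it at the cell surface or in the matrix. These 8 genes were picked by symbol from 22907 named genes on the array, with their response to LPS already known, so their LPS values below are a description without a test. They are covered by 13 probes, of which 12 had a signal well above background throughout at least 1 group of arrays. The exception was the only probe of Has2, so 7 of the 8 genes were tested among 13280 genes.

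Hyaluronan is a long sugar chain that synthases of the Has family spin out at the plasma membrane from UDP-N-acetylglucosamine and UDP-glucuronic acid. The hexosamine route supplies the UDP-N-acetylglucosamine from fructose 6-phosphate and glutamine, and its entry enzyme is encoded by Gfpt1 and Gfpt2. In the peritoneum hyaluronan is known chiefly as a product of mesothelial cells, while macrophages bind it and take it up through receptors that include CD44.

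The RNA came from macrophages of the abdominal cavity of C57/BL6 mice, cultured in medium with 10% FBS. Cells of mice lacking the G protein-coupled receptor GPR15 received LPS, a bacterial cell-wall component, at 100 ng/ml for 4 h (KO LPS) or PBS for 4 h (KO PBS). Wild-type cells received the same (WT LPS and WT PBS), and each of the 4 groups has 3 one-colour Agilent arrays, 12 in all. The purification of the macrophages, the sex and age of the mice, and whether replicates came from separate animals are not given in the sources used here. The p-values therefore measure the spread between arrays, which may be technical. Levels are log2 signal minus the array's 75th percentile, and a value given with ± has the limma standard error, from n = 3 arrays per group.

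On each array 48.8% to 57.1% of spots were well above background, 0 spots were saturated, and replicates correlated across genes at 0.990 to 0.998. In both WT groups, replicate 3 was the array least like its replicates, as was KO PBS replicate 3 in its group. All 6 WT arrays lay on slide 1 with KO PBS replicates 1 and 2, and the other 4 arrays lay on slide 2. KO LPS and WT LPS arrays were therefore always on different slides, and of the KO PBS arrays only replicate 3 shared a slide with KO LPS. Gpr15 was well above background on 0 of 12 arrays, which leaves the KO label without a check from its own gene. The Y-linked genes Ddx3y, Kdm5d and Uty were well above background on 6 of 6 KO arrays and 0 of 6 WT arrays, and Xist on 0 of 6 KO arrays and 6 of 6 WT arrays. A genotype difference and a sex difference cannot be told apart here.

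All 12 macrophage markers on the list, such as Adgre1, Csf1r and Cd14, were well above background on all 12 arrays. Of 11 mesothelial markers on the array, 0 were well above background on all arrays and 6 were on none, among them Upk3b, Wt1 and Krt19. Fibroblast markers gave 4 of 10 on all arrays and 5 on none, including Col1a1, Col3a1 and Pdgfra, and endothelial markers gave 1 of 6 on all and 4 on none. Markers of B cells (8 of 8), mast cells (7 of 8), T cells (7 of 8) and neutrophils (4 of 7) were well above background on all arrays. The array measures RNA of the whole culture, so fewer cells of a type and less RNA per cell cannot be told apart.

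RefSeq lists a promoter window for 7 of the 8 genes (assembly GRCm38.p6), and Has2 is the gene not listed. In the 250 bases before each start, 5 motifs were sought on both strands: AP-1 (TGANTCA, present in 6.75% of all 32851 windows of this length), CRE (TGACGTCA, 1.55%), STAT (TTCNNNGAA, 7.02%), the TATA box (letters TATAAA, 12.4%) and the kB consensus (7.25%). Matches lay in Has1, Gfpt2 and Tnfaip6, and none in Gfpt1, Ugdh, Uap1 or Cd44. The matching stretches are shown because these 3 genes had the largest LPS differences of the 7 measured, and capitals mark the matched letters. A match describes the letters and says nothing of binding. The share of all windows with any of the 5 motifs was not counted, so nothing is read from which genes had a match.

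Gfpt2, chr11:49793905-49794154, plus strand, with AP-1 at 223 bases before the start and overlapping kB matches at 114 and 113:
Gfpt2: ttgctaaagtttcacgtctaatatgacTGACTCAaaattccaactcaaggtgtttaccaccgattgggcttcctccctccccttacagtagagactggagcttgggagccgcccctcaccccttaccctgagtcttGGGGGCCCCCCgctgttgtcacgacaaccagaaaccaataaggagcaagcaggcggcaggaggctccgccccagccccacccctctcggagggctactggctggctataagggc
Tnfaip6, chr2:52037863-52038112, plus strand, with STAT at 209 and AP-1 at 142 bases before the start:
Tnfaip6: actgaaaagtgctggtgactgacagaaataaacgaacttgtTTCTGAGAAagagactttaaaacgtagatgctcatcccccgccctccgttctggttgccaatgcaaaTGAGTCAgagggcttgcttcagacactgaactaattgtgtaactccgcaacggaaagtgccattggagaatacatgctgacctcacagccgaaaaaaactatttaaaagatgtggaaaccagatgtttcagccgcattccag
Has1, chr17:17855253-17855282, minus strand, the 30 bases around a CRE at 83 bases before the start (the RefSeq gene record reaches farther upstream than this start):
Has1: cagacttgtccTGACGTCAgccctcctcca

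The first question was how the genes stood after LPS. Has1, Gfpt2 and Tnfaip6 were many-fold higher with LPS in both genotypes, Cd44 was moderately higher, Uap1 was slightly lower, and Ugdh and Gfpt1 differed little. Of the 7 genes measured, 6 lay past an adjusted p of 0.05 in KO cells and 5 in WT cells, where 67% and 64.7% of all genes tested did. The arrays of LPS and PBS did not overlap for 7 of 7 in KO cells and 5 of 7 in WT cells, against 72.1% and 69.4% of all genes. The genes were chosen with these contrasts in view, so nothing is read from these counts.

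Has1 encodes a hyaluronan synthase. Its levels in KO cells were 2.84, 2.91 and 2.59 with LPS, against -2.38, -2.40 and -2.38 with PBS. In WT cells they were 2.86, 2.56 and 3.68 with LPS, against -1.28, -1.21 and -1.62 with PBS. Every LPS array lay far above every PBS array, the highest value being WT LPS replicate 3. The difference was 5.17 ± 0.22 in KO cells (35.9-fold) and 4.40 ± 0.22 in WT cells (21.1-fold).

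Has2, a second synthase, was at the limit of detection. Its levels were -6.27, -3.66 and -3.63 in KO LPS cells and -6.33, -6.27 and -6.66 in KO PBS cells. Those in WT cells were -6.00, -6.62 and -4.02 with LPS, against -3.85, -3.91 and -5.56 with PBS. The probe was well above background on 4 arrays only, KO LPS replicates 2 and 3 and WT PBS replicates 1 and 2, so no fold is given. Has3, the remaining synthase gene of the family and named here for that reason, failed the filter on dim signals too.

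Gfpt2 encodes one form of the glutamine-dependent enzyme that commits fructose 6-phosphate to hexosamines. In KO cells its levels were 1.89, 2.08 and 1.69 with LPS, against -1.82, -2.05 and -1.85 with PBS. WT cells gave 2.49, 2.56 and 2.28 with LPS, against -1.14, -0.85 and -2.01 with PBS. LPS and PBS arrays were far apart in both genotypes, and WT PBS replicate 3 was the lowest of its group. The difference was 3.80 ± 0.23 in KO cells (13.9-fold) and 3.77 ± 0.23 in WT cells (13.7-fold).

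Gfpt1, which encodes the other form, differed little with LPS. Its brightest probe read 2.85, 2.79 and 2.83 in KO LPS cells, against 2.40, 2.41 and 2.35 in KO PBS cells. In WT cells the levels were 3.02, 3.04 and 2.71 with LPS, against 2.91, 3.10 and 2.32 with PBS. LPS arrays lay above PBS arrays in KO cells, whereas the WT groups overlapped and WT PBS replicate 3 was again the lowest. The difference was 0.44 ± 0.16 in KO cells and 0.15 ± 0.16 in WT cells, and the WT value was -0.08 without WT PBS replicate 3. The dimmest of its 3 probes gave 0.69 ± 0.14 in KO cells and 0.54 ± 0.14 in WT cells.

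Uap1 makes UDP-N-acetylglucosamine in the last step of the route, and Ugdh makes UDP-glucuronic acid. Uap1 levels were 3.24, 3.29 and 3.27 in KO LPS cells, against 3.70, 3.62 and 3.52 in KO PBS cells. WT cells gave 3.15, 3.23 and 3.16 with LPS, against 3.46, 3.49 and 3.43 with PBS. The LPS arrays were all below the PBS arrays of their genotype, with a difference of -0.34 ± 0.05 in KO cells (1.27-fold lower) and -0.28 ± 0.05 in WT cells (1.21-fold lower). The brighter Ugdh probe stayed between 2.55 and 2.72 on all 12 arrays, and its difference was -0.10 ± 0.05 in KO cells and -0.01 ± 0.05 in WT cells. Its dimmer probe gave 0.07 ± 0.07 in KO cells and -0.07 ± 0.07 in WT cells.

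Cd44 encodes the main hyaluronan receptor of leukocytes. The brightest of its 3 probes read 4.54, 4.53 and 4.53 in KO LPS cells, against 3.76, 3.83 and 3.85 in KO PBS cells. In WT cells it read 4.26, 4.24 and 4.28 with LPS, against 3.76, 3.80 and 3.65 with PBS. All LPS arrays lay above all PBS arrays. The difference was 0.72 ± 0.05 in KO cells (1.65-fold) and 0.52 ± 0.05 in WT cells (1.44-fold). The second probe gave 0.74 ± 0.07 in KO cells and 0.98 ± 0.07 in WT cells, and the dimmest 0.40 ± 0.12 in KO cells and 0.23 ± 0.12 in WT cells. In 2 of 3 probes the difference was larger in KO cells.

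Tnfaip6 encodes TSG-6, a secreted protein that binds hyaluronan and moves heavy chains of inter-alpha-inhibitor onto it. In KO cells its levels were -2.06, -1.98 and -2.12 with LPS, against -4.96, -4.65 and -4.48 with PBS. WT cells gave -1.48, -1.29 and -1.83 with LPS, against -3.08, -2.61 and -4.98 with PBS. LPS arrays were above PBS arrays in both genotypes, but the probe was not well above background on any KO PBS array or on WT PBS replicate 3. Its level was at least 4.36-fold higher with LPS in KO cells, where the measured means were -2.05 with LPS and -4.70 with PBS. In WT cells the difference was 2.03 ± 0.45 (4.07-fold), or 1.31 without WT PBS replicate 3. Under normexp background correction, with an offset of 50 added to the signal, the differences were 1.19 in KO cells and 1.08 in WT cells. Both are smaller than these values and, in KO cells, than the stated bound. Tnfaip6 passed the filter only through its LPS groups.

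**Figure D1:**
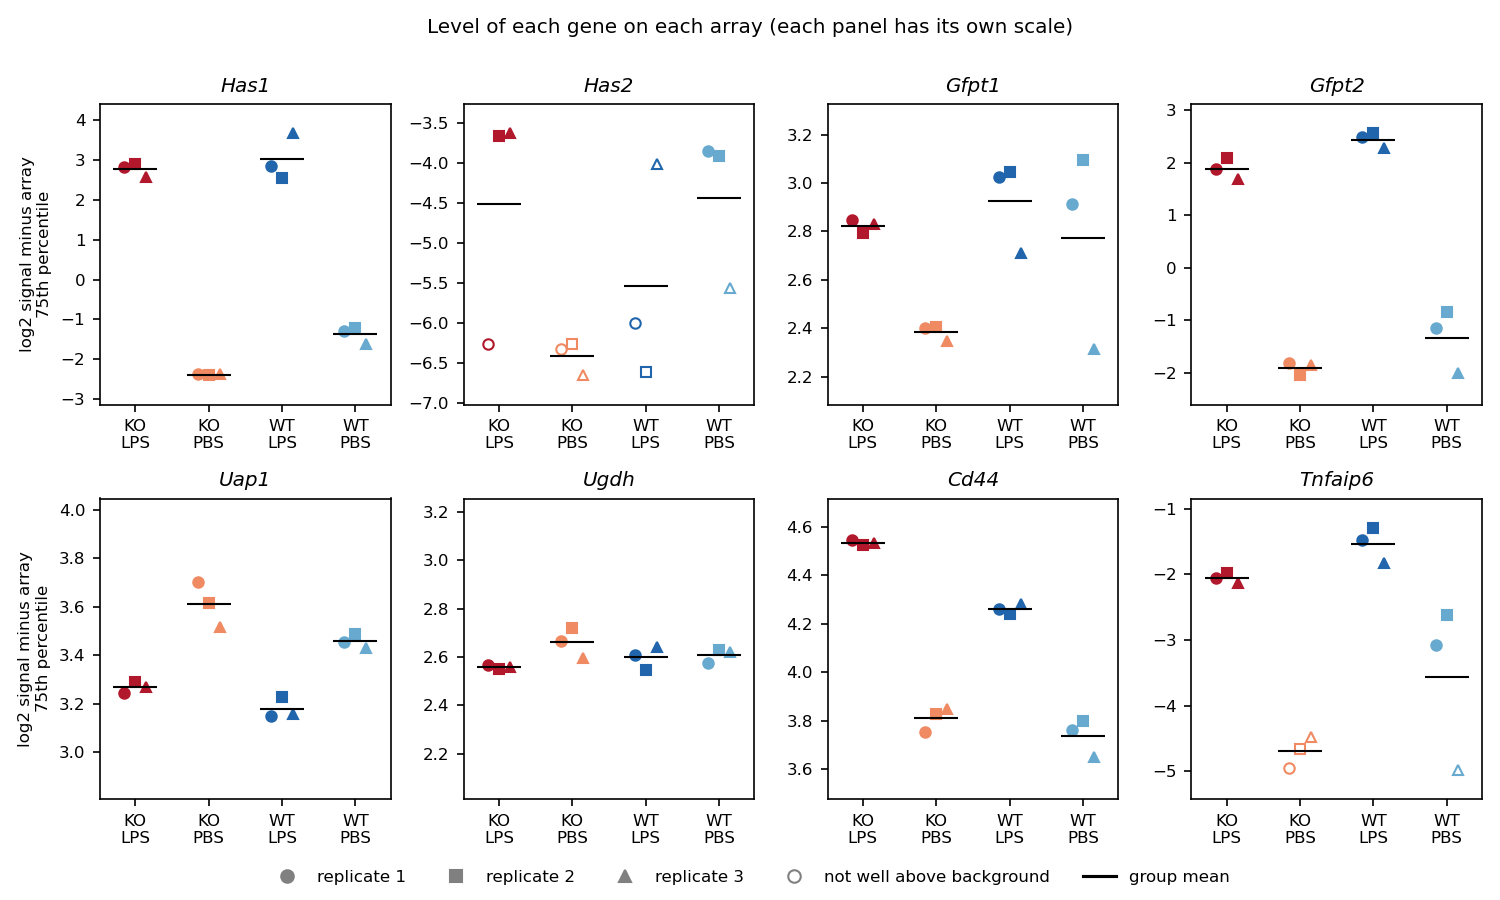
Level of each of the 8 genes on each of the 12 arrays (log2 signal minus the array's 75th percentile; each panel has its own vertical scale). Shapes mark the replicate, open symbols a probe not well above background, and lines the group mean of 3 arrays; Has1, Gfpt2 and Tnfaip6 are higher with LPS in both genotypes, and WT PBS replicate 3 is the lowest of its group for Gfpt1, Gfpt2 and Tnfaip6.

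Marker sums were set beside single genes, of which 72.1% in KO cells and 69.4% in WT cells did not overlap between LPS and PBS. The mast cell, B-cell and fibroblast sums did not overlap in either genotype. Neutrophil and endothelial sums overlapped in both, T-cell and mesothelial sums in KO cells only, and macrophage sums in WT cells only. Macrophage markers summed to 899.8 to 954.8 in KO LPS cells against 1005 to 1129 in KO PBS cells. The summed level of 8 mast cell markers (linear signal over the array's 75th percentile) was 187.9 to 204.8 in KO LPS cells against 99.1 to 116.3 in KO PBS cells, and 240.7 to 263.2 in WT LPS cells against 111.1 to 149.6 in WT PBS cells. Of these markers 3 rose and 1 fell in KO cells, and 3 rose and 2 fell in WT cells. The sum follows Hdc, the histidine decarboxylase gene, singled out here after its values were seen, whose mean level was 6.93 in KO LPS cells against 5.49 in KO PBS cells and 7.25 in WT LPS cells against 5.71 in WT PBS cells. That of 8 B-cell markers was 54.0 to 54.9 in KO LPS cells against 110.1 to 116.2 in KO PBS cells, and 67.6 to 80.2 in WT LPS cells against 131.9 to 167.4 in WT PBS cells. Fibroblast markers summed to 2.16 to 2.39 in KO LPS cells against 1.82 to 1.96 in KO PBS cells, and to 2.30 to 3.88 in WT LPS cells against 1.57 to 2.01 in WT PBS cells. Neutrophil markers summed to 7.91 to 10.0 in KO LPS cells against 5.84 to 9.10 in KO PBS cells, and to 4.09 to 10.3 in WT LPS cells against 3.14 to 4.14 in WT PBS cells. T-cell markers summed to 12.13 to 12.98 in KO LPS cells against 10.5 to 12.6 in KO PBS cells, and to 9.96 to 10.4 in WT LPS cells against 10.9 to 12.7 in WT PBS cells. Mesothelial markers summed to 0.287 to 0.369 in KO LPS cells against 0.252 to 0.368 in KO PBS cells, and to 0.248 to 0.356 in WT LPS cells against 0.397 to 0.682 in WT PBS cells. The part of these cells in the LPS differences of the 8 genes was not tested.

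The genes whose levels over the 12 arrays followed each of the 3 most LPS-responsive genes were sought among 11341 genes well above background on all LPS arrays. Predicted, clone, LOC and Riken names were passed over. For Has1 the nearest named genes were Armcx6, Tmem88, Cd83, Pim1 and Arid5a, with Pearson's r between 0.995 and 0.997. Those nearest Gfpt2 were Mettl16, Grasp, Esf1, Ly6k and Ccl4 (r 0.996 to 0.998), and those nearest Tnfaip6 were Gpr65, Tmtc2, Dusp1, Nrg1 and Chd7 (r 0.990 to 0.995). Their LPS differences were smaller than that of Has1, from 1.24 (Arid5a) to 2.17 (Tmem88) in KO cells and from 1.10 to 1.93 in WT cells for the Has1 neighbours. The arrays share the LPS treatment, so these values describe a common split of LPS and PBS arrays.

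Around the 8 genes, 58 further genes in 4 lists were followed, of which 57 are on the array and 43 were tested. They were not selected for how they moved, though the lists were drawn up with earlier results of these data known. With LPS, 16 rose and 13 fell in KO cells, with a median difference of 0.02 against 0.04 for all genes, and 13 rose and 14 fell in WT cells, with medians of -0.02 and 0.03. In KO cells 35.1% of all genes were called higher and 32% lower, and in WT cells 33.7% and 31%. With slide as a term in the fit, the KO calls of Slc1a5, Hmmr, Stab2 and Vcan were lost (limma adjusted p = 0.127 to 0.403). Ogt was then called lower (-0.36, 0.00697). These 5 genes are named here after their values were seen.

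The supply of UDP-sugars moved in both directions. Of 20 genes tested, 5 rose and 8 fell in each genotype. Hk2, a hexokinase that traps glucose in the cell, rose by 1.58 ± 0.12 in KO cells (limma adjusted p = 3.5e-07) and 1.41 ± 0.12 in WT cells (7.6e-07). Gnpnat1, which acetylates the product of the Gfpt enzymes, rose by 0.64 ± 0.06 in KO cells and 0.65 ± 0.06 in WT cells, and the glucose transporter gene Slc2a1 by 0.82 ± 0.09 and 0.50 ± 0.09. Gnpda1, which turns glucosamine 6-phosphate back into fructose 6-phosphate, fell by 0.90 ± 0.07 in KO cells and by 1.38 ± 0.07 in WT cells, and the deacetylase gene Amdhd2 fell by 1.41 ± 0.10 in KO cells and by 1.27 ± 0.10 in WT cells. Glul, which makes glutamine, fell by 0.51 ± 0.04 in KO cells and by 0.57 ± 0.04 in WT cells.

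Of 5 hyaluronan degradation genes tested, 1 rose and 3 fell in each genotype. Cemip2, which encodes a cell-surface protein implicated in hyaluronan breakdown, rose by 1.38 ± 0.07 in KO cells (2.61-fold, limma adjusted p = 2.0e-08) and 1.71 ± 0.07 in WT cells (3.26-fold, 3.3e-09). The lysosomal genes Gusb and Hexa, whose products trim sugars from the chain ends, fell, by 0.78 and 0.59 in KO cells and by 0.91 and 0.39 in WT cells.

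Among 11 receptor and linker genes, 4 rose and 2 fell in KO cells, and 3 rose and 3 fell in WT cells. C1qbp, a hyaluronan-binding protein gene, rose by 1.10 ± 0.04 in KO cells and 1.19 ± 0.04 in WT cells. Ezr and Rdx, whose products tie the CD44 tail to actin, rose by 0.83 and 0.51 in KO cells and by 1.07 and 0.30 in WT cells, and the scavenger receptor gene Stab1 fell by 1.22 in KO cells and 1.32 in WT cells. Msn, a linker gene like Ezr and Rdx, went the other way, by -0.10 in KO cells (not called) and -0.14 in WT cells (limma adjusted p = 0.0181). Of 7 matrix protein genes tested, 6 rose in KO cells and 4 in WT cells, and 0 fell. Ncan, which encodes the hyaluronan-binding proteoglycan neurocan, rose by 2.18 ± 0.18 in KO cells (limma adjusted p = 6.2e-07), where 1 of 3 PBS arrays measured it. In WT cells it rose at least 3.97-fold (6.5e-07), and 0 of 3 PBS arrays measured it. Ambp, the bikunin precursor whose product carries the heavy chains that TSG-6 transfers, rose by 1.08 ± 0.11 in KO cells and 1.47 ± 0.11 in WT cells. Ptx3, which encodes a pentraxin that joins TSG-6 in the hyaluronan matrix, rose with LPS at least 2.01-fold in KO cells and at least 1.21-fold in WT cells, where only 1 of 3 LPS arrays measured it (limma adjusted p = 0.000469 and 0.000103). Ncan and Ptx3 passed the filter only through groups with LPS, where they were higher, so their p-values and their part in the counts are a description. Stab2, counted among the receptor genes that rose in KO cells, passed only through KO LPS cells, where it was highest. Its part in the KO counts is a description too.

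**Figure D2:**
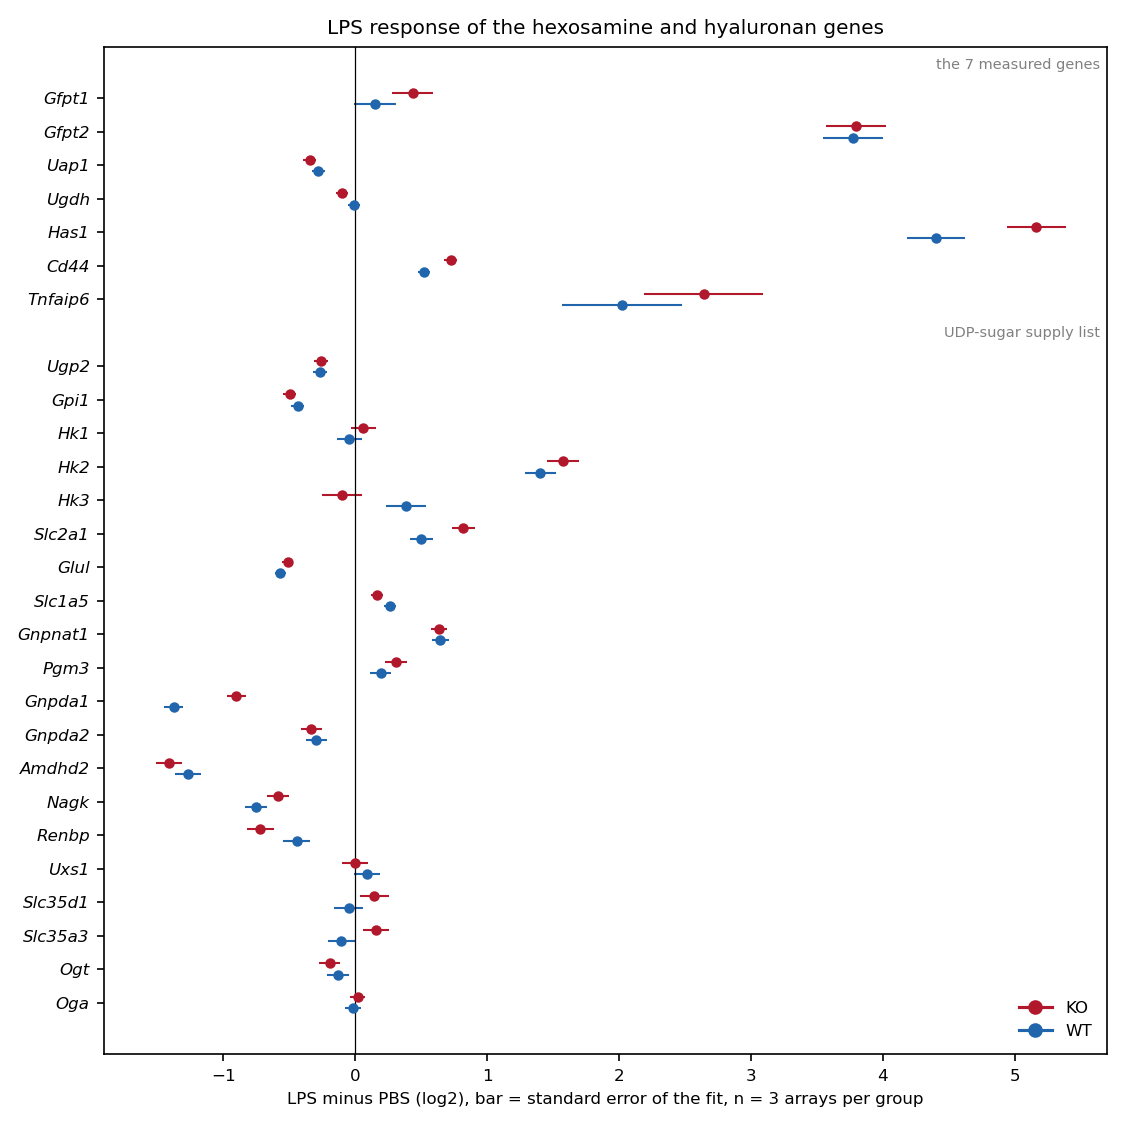
LPS minus PBS (log2, standard error of the fit, n = 3 arrays per group) for the 7 measured genes and for every tested gene of the UDP-sugar supply list, in KO cells (upper point) and WT cells (lower point). Has1, Gfpt2 and Tnfaip6 lie to the right of the listed genes, the highest of which is Hk2, and Gnpda1 and Amdhd2 are the lowest.

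The second question was whether the genes differed between KO and WT cells, a contrast that did not serve to choose them. In PBS, 1 of 7 genes was called, against 14.1% of all genes tested, and the arrays of KO and WT did not overlap for Has1 and Uap1, 2 of 7, against 30.5% of all genes. Has1 was 2.02-fold lower in KO cells, by -1.02 ± 0.22 (limma adjusted p = 0.0117), with KO arrays between -2.40 and -2.38 and WT arrays between -1.62 and -1.21. Under normexp background correction, with an offset of 50 added to the signal, the difference was -0.65 (adjusted p = 0.0618). On slide 1 alone, with KO PBS replicates 1 and 2, it was -1.02 (0.0699). With slide as a term in the fit it was -1.02 (0.0289), and over 26 alternatives the adjusted p lay between 3.8e-05 and 0.0699. Beside this, 4 of the 8 marker sums did not overlap between the genotypes in PBS, where 30.5% of all single genes did not. Mesothelial markers summed to 0.252 to 0.368 in KO PBS cells against 0.397 to 0.682 in WT PBS cells, though 0 of 11 were well above background on all arrays. B-cell markers summed to 110.1 to 116.2 in KO PBS cells against 131.9 to 167.4 in WT PBS cells. Macrophage markers summed to 1005 to 1129 in KO PBS cells against 873.2 to 930.2 in WT PBS cells, and neutrophil markers to 5.84 to 9.10 in KO PBS cells against 3.14 to 4.14 in WT PBS cells. Their part in the difference was not tested.

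Gfpt1, Gfpt2 and Tnfaip6 were not called in PBS, and the 3 genes share a pattern among the arrays. In each, WT PBS replicates 1 and 2 stood above the KO arrays, and WT PBS replicate 3 stood below them for Gfpt1 and Tnfaip6 and within their range for Gfpt2. The KO minus WT difference was -0.39 for Gfpt1 (95% interval -0.73 to -0.05, adjusted p = 0.12), -0.57 for Gfpt2 (-1.07 to -0.07, 0.116) and -1.14 for Tnfaip6 (-2.13 to -0.15, 0.116). Without WT PBS replicate 3 the differences were -0.62 for Gfpt1 (adjusted p = 0.00102), -0.91 for Gfpt2 (0.000806) and -1.85 for Tnfaip6 (0.000163), so 4 of 7 genes were then called, against 19.4% of all genes in the same fit. Over the alternatives the adjusted p reached 0.378 for Gfpt1 and 0.37 for Gfpt2 and Tnfaip6. Tnfaip6 was well above background on 0 of 3 KO PBS arrays and 2 of 3 WT PBS arrays, which overlapped.

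Uap1 was 0.15 higher in KO cells in PBS (95% interval 0.04 to 0.26, adjusted p = 0.0629), and 0.20 higher with slide as a term (0.0125, in a range up to 0.359). Ugdh differed by 0.05 (-0.05 to 0.15, adjusted p = 0.474) and Cd44 by 0.07 (-0.03 to 0.17, 0.315). Among the listed genes 9 rose and 0 fell in KO cells, where 8.06% of all genes were called higher and 6.05% lower, a count that ranged from 2 to 15 when 1 array was left out. They include the N-acetylglucosamine kinase gene Nagk (0.42 ± 0.09, limma adjusted p = 0.0081), Amdhd2 (0.34 ± 0.10, 0.042) and Ambp (0.58 ± 0.11, 0.00698). The 9 also include Ptx3 (0.91 ± 0.26, limma adjusted p = 0.0364), which 0 arrays measured in KO PBS cells and 0 in WT PBS cells. Its call therefore compares dim signals only. Over all genes 57.1% of the calls in PBS were higher in KO cells, and 43.4% were with median scaling, under which 4 listed genes rose and 0 fell.

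After LPS, 1 of 7 genes was called, against 39.5% of all genes tested. KO and WT arrays did not overlap for Gfpt2, Uap1, Cd44 and Tnfaip6, 4 of 7, against 58.4% of all genes. Cd44 was higher in KO cells by 0.27 ± 0.05 (1.21-fold, limma adjusted p = 0.00128), with KO arrays between 4.53 and 4.54 and WT arrays between 4.24 and 4.28. With slide as a term its difference was 0.22 (adjusted p = 0.129), and with slide as a random block 0.25 (0.0275), within a range of 0.000492 to 0.129 over 25 alternatives. The other Cd44 probes gave -0.02 ± 0.07 (adjusted p = 0.825 over all probes) and 0.25 ± 0.12 (0.113), so the call rests on the brightest probe.

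Gfpt2 was lower on every KO LPS array than on any WT LPS array, by -0.55 (95% interval -1.05 to -0.05), which missed the threshold (adjusted p = 0.0743). It passed with median scaling (-0.66, adjusted p = 0.0375), and its alternatives ranged from 0.00217 to 0.435. Has1 differed by -0.25 (-0.74 to 0.23, adjusted p = 0.382), or 0.07 without WT LPS replicate 3. Tnfaip6 differed by -0.52 (-1.52 to 0.47, 0.379), and its p was 0.0381 without WT PBS replicate 3, in a range of 0.0148 to 0.605. Gfpt1 differed by -0.10 (-0.44 to 0.24, 0.628).

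Uap1 was 0.09 higher in KO cells after LPS (95% interval -0.02 to 0.20, adjusted p = 0.18), or -0.02 with median scaling. The brighter Ugdh probe gave -0.04 (-0.14 to 0.06, 0.505), whereas its dimmer probe was higher by 0.22 ± 0.07 (adjusted p = 0.032 over all probes). The 43 listed genes gave 9 calls upward and 5 downward in KO cells (20% and 19.5% of all genes), or 6 and 10 with median scaling, which moved the median gene by -0.11. The 9 include Stab2 and Lyve1, which passed the filter only through KO groups, where they were higher, and are named here for that reason. Their part in the count is a description. Over all genes 50.6% of the calls were higher in KO cells, and 30.2% with median scaling. Gnpda1 was the called gene of the UDP-sugar supply list with the smallest p (0.70 ± 0.07, limma adjusted p = 5.4e-05), and with slide as a term 4 of the listed genes were called in place of 14. Of the 8 marker sums, 5 did not overlap between the genotypes after LPS, beside 58.4% of all single genes, so nothing is read from this count. Mast cell markers summed to 187.9 to 204.8 in KO LPS cells against 240.7 to 263.2 in WT LPS cells, B-cell markers to 54.0 to 54.9 in KO LPS cells against 67.6 to 80.2 in WT LPS cells, and endothelial markers to 0.380 to 0.436 in KO LPS cells against 0.463 to 0.476 in WT LPS cells. T-cell markers summed to 12.13 to 12.98 in KO LPS cells against 9.96 to 10.4 in WT LPS cells, and macrophage markers to 899.8 to 954.8 in KO LPS cells against 805.5 to 889.6 in WT LPS cells. Their part, like that of the slide, was not tested further.

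**Figure D3:**
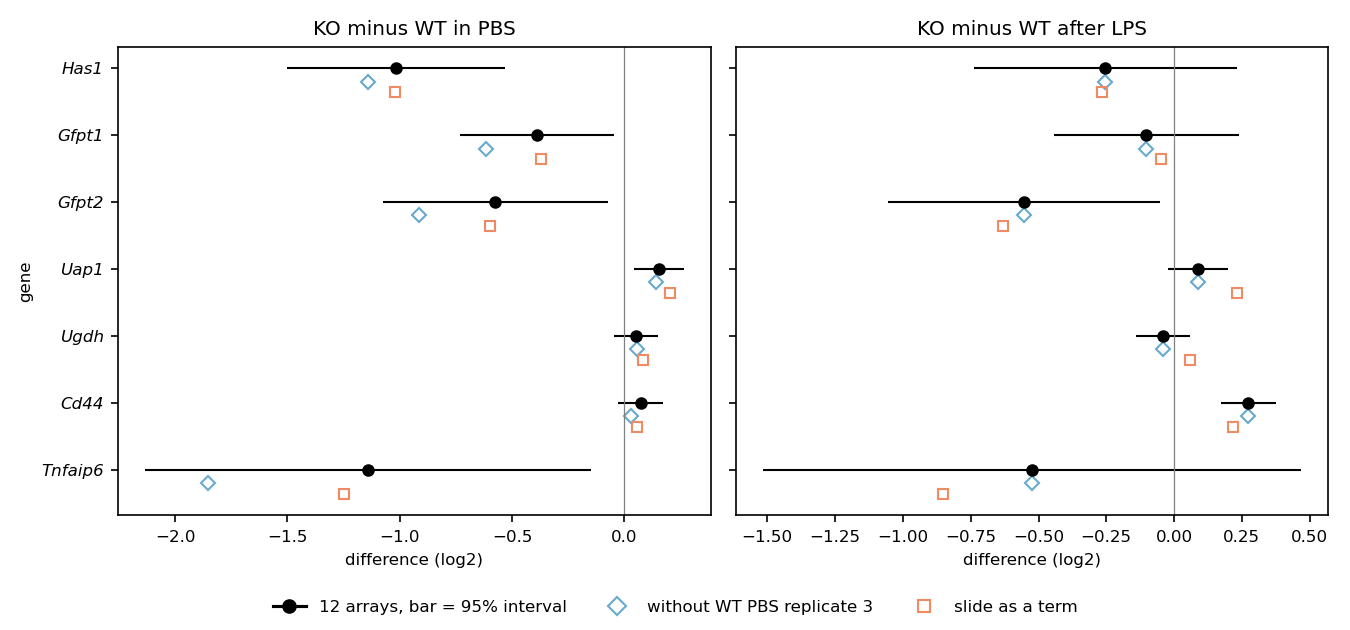
KO minus WT difference (log2) of the 7 tested genes in PBS and after LPS. Filled points and bars give the fit over 12 arrays with its 95% interval, diamonds the value without WT PBS replicate 3, and squares the value with slide as a term; in PBS the diamonds of Gfpt1, Gfpt2 and Tnfaip6 lie farther from 0 than the filled points.

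The third question was whether the LPS difference itself differed between KO and WT cells. The interaction passed in limma for 0 of 7 genes, against 4.31% of all genes tested (0.926% upward, 3.39% downward), and 2 of 7, Has1 and Cd44, had an unadjusted p under 0.05, as did 20.7% of all genes. Has1 had the larger LPS difference in KO cells by 0.76 (0.08 to 1.45, adjusted p = 0.196), with lower KO values in PBS and overlapping KO and WT values after LPS. Without WT LPS replicate 3, the highest Has1 array, the interaction was 1.09 (adjusted p = 0.0042, in a fit that called 5.45% of all genes), and over 24 alternatives the adjusted p lay between 0.000461 and 0.465. Cd44 gave 0.20 (0.06 to 0.34, 0.118), and 0.24 (0.0303) without WT PBS replicate 3, while its second probe gave -0.23 ± 0.10 (0.206 over all probes) and its dimmest 0.17 ± 0.16 (0.607), and the alternatives ranged from 0.0262 to 0.803.

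Gfpt2, with LPS differences of 3.80 in KO cells and 3.77 in WT cells, had an interaction of 0.02 (-0.69 to 0.73, adjusted p = 0.977). Gfpt1 gave 0.29 (-0.20 to 0.77, 0.487) and Tnfaip6 0.62 (-0.79 to 2.02, 0.615). Without WT PBS replicate 3 these were 0.52 (adjusted p = 0.0285) and 1.33 (0.0138). With Cd44, 3 of 7 genes were then called, against 7.23% of all genes. Over the alternatives the adjusted p reached 0.768 for Gfpt1 and 0.917 for Tnfaip6. Tnfaip6 was well above background on 0 of 3 KO PBS arrays, so its interaction and this call rest partly on dim signals. Under normexp background correction, with no array left out, its interaction was 0.11 (limma adjusted p = 0.817). Ugdh gave -0.09 (-0.23 to 0.05, 0.436) and Uap1 -0.07 (-0.22 to 0.09, 0.628).

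**Figure D4:**
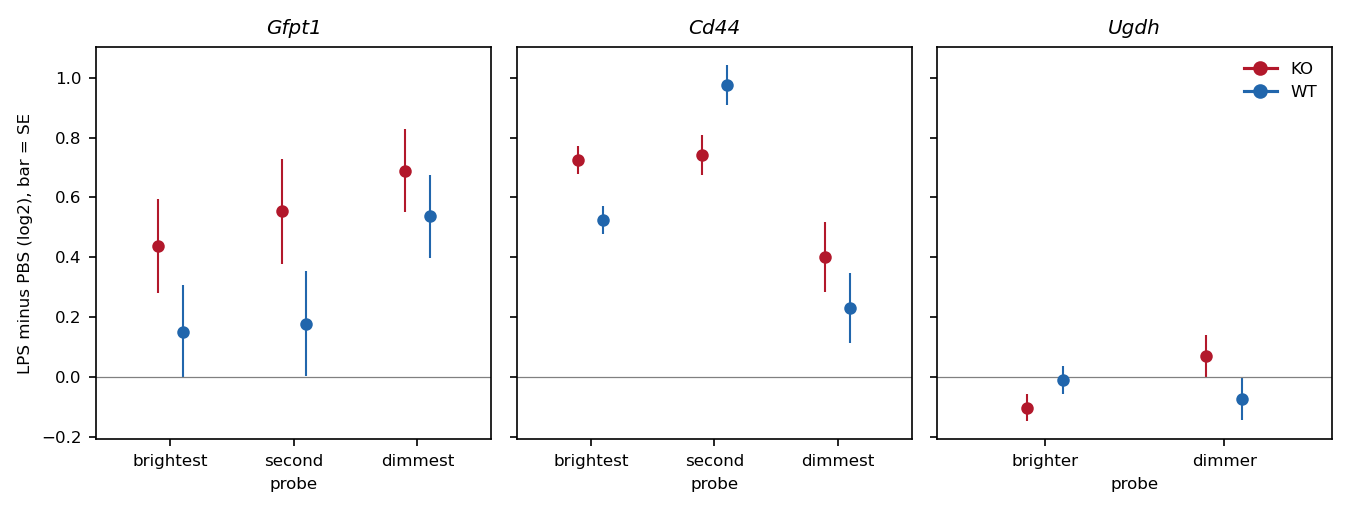
LPS minus PBS (log2, with standard errors) for each probe of the 3 genes that have several, in KO cells (left point) and WT cells (right point). The probes of Gfpt1 are all above 0, the brightest and second Cd44 probes order the genotypes differently, and the Ugdh probes lie between -0.10 and 0.07.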

How the data were processed

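Per the file headers, each deposited file gives the linear intensity of every spot with its quality values. The submitters' processing notes name Agilent Feature Extraction 11.5.1.1 as the tool. Cy3-labelled cRNA was made from 0.1 µg RNA, per the labels' protocols. Groups came from the sample titles. Processed signals were put on a log2 scale, the array's 75th percentile over non-control spots was subtracted, and spots of a probe were averaged without marked ones. Of 56605 probes, 32989 matched a symbol through RefSeq names (GRCm38.p6). Kept probes were well above background throughout at least 1 group (3 of 3 arrays), and the brightest probe stood for a gene. With limma 3.58.1 (R 4.3.3) a mean per group was fitted to the 12 arrays with a variance trend, and two-sided p-values were adjusted by Benjamini-Hochberg over 13280 genes. The threshold was 0.05. Single probes were adjusted over the 19063 kept probes with a symbol. The steps were tested on simulated data.

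The 8 genes and the lists were chosen with earlier results of these data known. From each list, comparison and direction, up to 3 called genes with the smallest p could be named, or 1 if none was called. For Has1, Gfpt2 and Tnfaip6 the 5 genes with the highest r were named, passing over predicted, clone, LOC and Riken names. A listed gene that met this rule is not reported here. A fold against a group in which no array was well above background is a lower bound, set against the higher of the dim probe's signal and the lowest signal well above background on each array. The number of arrays limits the precision. Normexp used the median signal, since the files have no mean signal column, and added an offset of 50, which shrinks the log2 differences of dim signals.

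Residuals of equally numbered arrays correlated at 0.105, 0.371 and 0.481 between WT LPS and WT PBS. The WT array numbers were taken as pairs only in a fit added later, and the main fit used no pairs. The correlations were 0.04, 0.113 and 0.081 between the KO groups, and -0.102 to 0.017 between genotypes.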

Additional observations from a re-analysis of the deposited data

Results flagged for a closer look

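Gnpda1, the enzyme gene that takes glucosamine 6-phosphate out of the hexosamine route, was the only listed gene whose LPS difference passed the test of a difference between genotypes: it fell by 0.90 in KO cells and by 1.38 in WT cells, an interaction of 0.48 ± 0.10 (limma adjusted p = 0.0181). Its levels were 2.81, 2.73 and 2.83 in KO LPS cells against 3.71, 3.66 and 3.68 in KO PBS cells, and 2.04, 2.02 and 2.20 in WT LPS cells against 3.45, 3.33 and 3.61 in WT PBS cells. The call was lost in 7 of 24 alternatives: with the mean over its probes (0.21, adjusted p = 0.641), with slide as a term (0.48, 0.0825), and without KO LPS replicate 1 or 3, KO PBS replicate 2 or WT LPS replicate 1 or 2 (0.44 to 0.47, adjusted p = 0.0501 to 0.0577). Over all 24 the adjusted p lay between 0.00243 and 0.641.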

How the results depend on the processing

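The 27 alternatives (25 planned, and 2 chosen after seeing the data: leaving out both WT arrays numbered 3, and pairing the WT arrays alone), beside the fit of each probe, also added later, left the counts for LPS in KO and in WT cells within 1.5 times, and reversed no called value. In PBS, KO against WT, the 1874 called genes were 1087 on slide 1 alone, 799 when only the arrays compared were fitted and 3294 without both WT arrays numbered 3; the 1 called gene of the 7 became 0 with normexp, 2 with slide as a term or a random block and 4 without those arrays; and the 9 listed genes became 4 with median scaling, without a filter or on slide 1 alone, 3 with only the arrays compared and 19 without those arrays. After LPS, the 5240 called genes were 777 with slide as a term and 1496 with it as a random block; the 1 of 7 became 0 with slide as a term, 2 with quantile normalization, median scaling or the replicate block, 3 with only the arrays compared and 4 without both arrays numbered 3; and the 14 listed genes became 4 and 5 with slide as a term and as a random block. For the interaction, 573 genes became 1154, 0 of 7 became 4 and 1 listed gene became 4 without both arrays numbered 3; 0 of 7 became 1 with quantile normalization; and 1 listed gene became 2 with normexp and 0 with the mean over probes or slide as a term.

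Leaving out 1 array at a time gave, in PBS, 917 to 2579 genes, 1 to 4 of the 7 and 2 to 15 listed genes; after LPS, 3762 to 6109, 1 to 3 and 8 to 16; and for the interaction, 360 to 2797, 0 to 3 and 0 to 5. The highest interaction count came without KO PBS replicate 3, the lone KO PBS array on slide 2. The cause of these shifts was not tested. With the replicate block, Gfpt2 after LPS passed (-0.55, adjusted p = 0.0449), a pairing of genotypes that the residuals do not bear out; in the pairing of WT arrays alone, 2 further listed genes were called with LPS, Pgm3 (0.19, 0.0225) and Itih1 (0.61, 0.00438), named after their values were seen, and no other listed call changed. The fit on slide 1 alone was not run for LPS in KO, KO against WT after LPS or the interaction, which need slide 2, and a fit of only the arrays compared equals the full one for the interaction; the filter on all arrays leaves out Tnfaip6. Low signal limits Has2 and the PBS values of Tnfaip6, whose LPS difference with normexp was 1.19 in KO cells against 2.64, and 1.08 in WT cells against 2.03.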
